A study of Mus musculus with 18 samples.

Results

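The 9 genes described here are melanocyte genes and genes of pigment synthesis: Mitf, Tyr, Tyrp1, Dct, Pmel, Mlana, Slc45a2, Oca2 and Gpr143. They were taken by gene symbol from the count tables of mouse choroid, retina and brain, which together list 14410 genes. All 9 were listed among the 7569 genes of choroid. In retina 3 of them (Mitf, Tyr and Dct) were listed among 12826 genes, and in brain 1 (Mitf) among 13956. A tissue's table lists a gene where every library of at least 1 of the 2 fractions reached a raw value of 50. Members not listed in a tissue were not analysed there.

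The groups were Choroid Positive, Choroid Input, Retina Positive, Retina Input, Brain Positive and Brain Input, with 3 libraries each and 18 in all. Every group came from tamoxifen-treated ("Tam-induced") mice that carried Cdh5(PAC)-cre/ERT2 and NuTRAP, so the driver, the reporter and the drug were common to Input and Positive, and the labels give no age. In Cdh5(PAC)-cre/ERT2 the promoter of Cdh5, the vascular endothelial cadherin gene, drives a Cre recombinase that tamoxifen activates, which aims it at endothelial cells. NuTRAP is a reporter that, after Cre recombination, puts a green fluorescent tag on ribosomes. Translating ribosome affinity purification (TRAP) pulls these ribosomes down with an antibody against the tag: bead-bound RNA is the Positive fraction, and RNA taken from the same homogenate before the antibody was added is the Input. The series title gives the endothelial translatomes of these tissues as the subject. The libraries are labelled as biological replicates, and the number of animals behind each is not stated. The p-values therefore reflect the spread among these samples, part of which may be technical.

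Melanin is made inside melanosomes, which in the eye are found in the melanocytes of the choroid, cells of neural crest origin, and in the pigment epithelium that separates the choroid from the photoreceptors. The transcription factor MITF acts on the genes of pigment enzymes and melanosome proteins in both cell types. Tyrosinase carries out the rate-limiting step from tyrosine, TYRP1 and DCT act on later intermediates, PMEL forms the fibrils on which pigment is laid down, and SLC45A2 and OCA2 act on the melanosome's internal milieu.

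MITF is known to bind the M-box, a sequence with the core CATGTG, and the promoters of the 3 pigment enzymes are shown because they carry this core. The sequences are the 250 bases before the RefSeq transcription start on GRCm38.p6, each read 5′ to 3′ on the gene's own strand. They stand for Tyr at chr7:87493513-87493762 on the minus strand, Tyrp1 at chr4:80833963-80834212 on the plus strand and Dct at chr14:118052247-118052496 on the minus strand. Capitals mark CATGTG, its reverse complement CACATG and, in Dct, TAATCC, the core bound by OTX factors; both strands were searched, and the marked matches do not overlap.
Tyr: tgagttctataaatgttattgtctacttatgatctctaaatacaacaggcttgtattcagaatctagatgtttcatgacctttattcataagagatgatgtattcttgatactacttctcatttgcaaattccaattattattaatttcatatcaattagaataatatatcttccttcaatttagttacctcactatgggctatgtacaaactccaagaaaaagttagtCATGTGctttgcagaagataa
Tyrp1: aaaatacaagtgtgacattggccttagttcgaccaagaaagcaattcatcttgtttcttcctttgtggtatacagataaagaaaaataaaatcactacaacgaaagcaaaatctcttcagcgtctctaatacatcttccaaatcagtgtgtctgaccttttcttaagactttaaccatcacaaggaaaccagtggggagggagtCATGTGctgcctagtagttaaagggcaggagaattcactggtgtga
Dct: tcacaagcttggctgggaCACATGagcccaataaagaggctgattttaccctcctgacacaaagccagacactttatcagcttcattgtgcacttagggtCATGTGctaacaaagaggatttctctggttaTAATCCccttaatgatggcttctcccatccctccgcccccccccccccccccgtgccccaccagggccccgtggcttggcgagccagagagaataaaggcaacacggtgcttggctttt
The core began 21 bases before the start in Tyr, 46 bases in Tyrp1, and 232 and 150 bases in Dct, where TAATCC began 119 bases before the start. Tyr, Tyrp1 and Dct shared the 10 bases GTCATGTGCT, found on either strand in 0.155% of the 32851 promoter windows of this length, and Tyr and Tyrp1 shared the 11 bases AGTCATGTGCT, found in 0.0213%. These runs were picked as the longest shared ones that hold the core, so their rarity is not evidence. The windows counted included those of the genes themselves. The core alone was present in 12.3% of windows, the core with a T before it in 3.25%, and TAATCC or its reverse complement in 6.25%. RefSeq's promoter table matched 5 of the 9 members (Mitf, Tyr, Tyrp1, Dct and Oca2; not Pmel, Mlana, Slc45a2 and Gpr143). The Oca2 window had CATGTG or its reverse complement 186 bases before the start, and none of the 3 Mitf windows had it. A match describes letters in these windows and shows no binding.

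Listed genes summed to between 713733 and 2717264 estimated counts in Choroid Positive and between 2018126 and 10031274 in Choroid Input. The sums lay between 12325658 and 36157140 in the retina libraries and between 28128866 and 43219831 in the brain libraries. Choroid was therefore the shallowest tissue, and Choroid Positive 2 the shallowest library, in which the ribosomal RNA precursor Rn45s and Lars2 took 16.7% of the listed counts. Of 12 endothelial marker genes, 12 were higher in Choroid Positive than in Choroid Input, and Cdh5 itself stood at 783, 1020 and 633% of its Input level in the 3 choroid homogenates. Levels below are listed counts scaled to library size with TMM factors (CPM), and adjusted p-values come from edgeR's quasi-likelihood test with Benjamini-Hochberg adjustment over all genes of a comparison, with 0.05 as the threshold.

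In choroid, each of the 9 pigment genes was lower in Positive than in Input, with all Positive libraries below all Input libraries. The fitted Positive level was between 10.4% (Oca2) and 19.5% (Gpr143) of Input, and adjusted p (edgeR) was between 1.79e-05 (Oca2) and 0.00174 (Tyrp1). Of all choroid genes 20.2% were called lower, 26.8% had all Positive libraries below all Input libraries, and 8.35% were lower by 4-fold or more. The pigment genes ranked between 137 and 462 of 7569 from the largest decrease. Tyrp1, Dct and Pmel met the listing minimum in both fractions, and the other 6 met it in Input alone. A gene listed through Input alone had at least 1 Positive library below 50 counts, so the count of 9 is not evidence about the pigment genes as a set. Both fractions come from the same homogenate, but Input holds RNA of all its cells and Positive the bead-bound RNA, aimed at endothelial cells. These values therefore compare RNA between fractions and do not count cells. Between whole tissues, fewer cells of a type and less RNA per cell cannot be told apart.

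Mitf, the transcription factor, measured 39.5, 27.05 and 22.6 CPM in Choroid Positive 1, 2 and 3, against 212, 161 and 179 CPM in Choroid Input 1, 2 and 3. The fractions were well apart, with the highest Positive library far below the lowest Input library. The log2 fold change of Positive over Input was -2.60 ± 0.27 (SE; edgeR adjusted p = 2.02e-05). The gene lies on mm10 at chr6:97807058-98021358, plus strand.

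All 3 enzyme genes were lower in Positive. Tyr, tyrosinase (chr7:87427405-87493411, minus strand), measured 49.0, 23.9 and 17.4 CPM in Choroid Positive, against 275, 221 and 284 CPM in Choroid Input. Tyrp1 (chr4:80834230-80851718, plus strand) measured 546, 102 and 142 CPM in Choroid Positive, against 2654, 1062 and 1874 CPM in Choroid Input. Dct, dopachrome tautomerase (chr14:118012790-118052246, minus strand), measured 789, 433 and 232 CPM in Choroid Positive, against 4565, 2361 and 3016 CPM in Choroid Input. Choroid Positive 1 was the highest Positive library for all 3 enzymes, and its Tyrp1 level was several times that of the other Positive libraries while still below every Input library. The log2 fold change was -3.04 ± 0.34 for Tyr (edgeR adjusted p = 3.04e-05), -2.80 ± 0.55 for Tyrp1 (0.00174) and -2.77 ± 0.41 for Dct (0.000245). Without Choroid Positive 1 the Tyr value was -3.71 and the Tyrp1 value -3.92, each a change of more than 1.5 times.

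Pmel and Mlana encode proteins of the early melanosome, and MLANA is needed for the maturation of PMEL. Pmel (chr10:128706258-128720238, plus strand) measured 404, 159 and 143 CPM in Choroid Positive, against 2245, 1265 and 1651 CPM in Choroid Input. Mlana (chr19:29697941-29708306, plus strand) measured 123, 39.8 and 30.7 CPM in Choroid Positive, against 581, 412 and 409 CPM in Choroid Input. For both genes Positive 1 stood above Positive 2 and 3, and no Positive library reached the lowest Input. On the log2 scale Positive over Input was -2.85 ± 0.39 for Pmel (edgeR adjusted p = 0.00013) and -2.79 ± 0.43 for Mlana (0.000291). Leaving out Choroid Positive 1 gave -3.51 for Pmel and -3.77 for Mlana.

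Slc45a2 and Oca2 encode transporters of pigment organelles, and Gpr143 encodes a receptor found there. Slc45a2 (chr15:11000721-11029233, plus strand) measured 43.2, 41.4 and 20.9 CPM in Choroid Positive, against 305, 152 and 264 CPM in Choroid Input. Oca2 (chr7:56239771-56536517, plus strand), the gene of the pink-eyed dilution locus, measured 27.8, 15.9 and 10.4 CPM in Choroid Positive, against 163, 181 and 199 CPM in Choroid Input. Gpr143 (chrX:152781921-152808646, plus strand), a G protein-coupled receptor gene linked to ocular albinism in humans, measured 14.6, 17.5 and 5.80 CPM in Choroid Positive, against 64.4, 50.5 and 70.3 CPM in Choroid Input. The Input libraries of Oca2 lay close together, and in none of these genes did the fractions overlap. On the log2 scale Positive over Input was -2.79 ± 0.34 for Slc45a2 (edgeR adjusted p = 5.52e-05), -3.26 ± 0.34 for Oca2 (1.79e-05) and -2.36 ± 0.40 for Gpr143 (0.0006). Without Choroid Positive 1 the Oca2 value was -3.87. Gpr143 rested on estimated counts of 40, 11.5 and 10.2 in Choroid Positive 1, 2 and 3, and Oca2 on 75.5, 9.91 and 17.5, so both levels come from few counts in the last 2 libraries. Counts in Choroid Positive 2 and 3 were also low for Tyr (15.0 and 30.0), Slc45a2 (26.0 and 36.0) and Mlana (24.7 and 53.5).

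**Figure D1:**
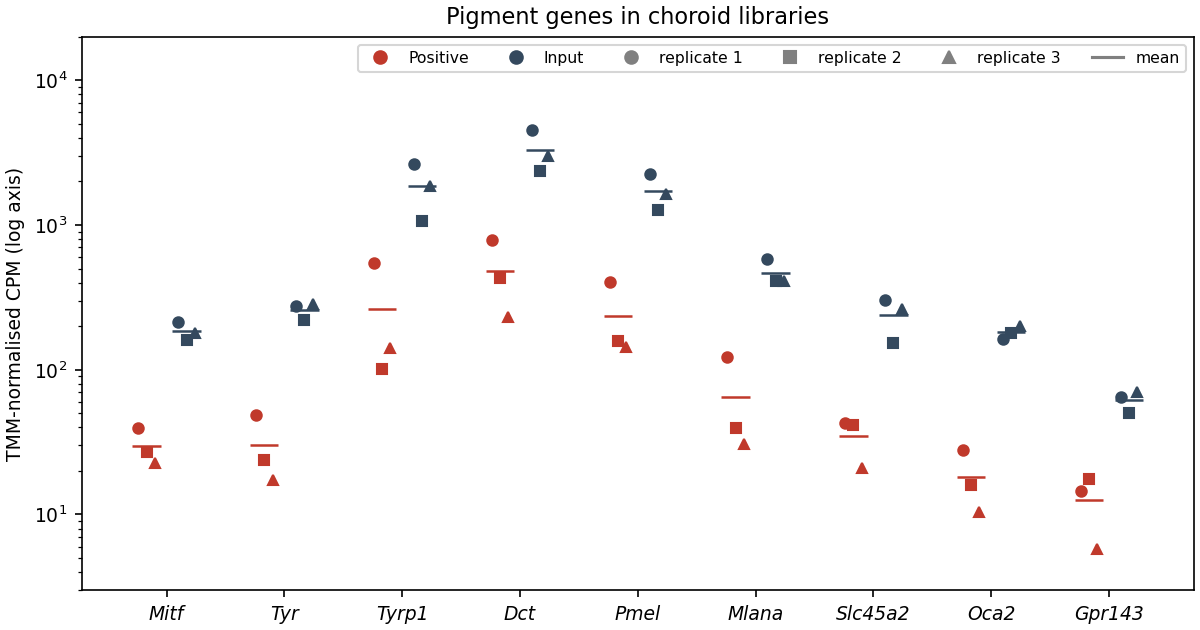
Level of each pigment gene in CPM on a log axis, with Choroid Positive libraries in red to the left of Choroid Input libraries in blue, the replicate number as the symbol and the group mean as a bar. In each of the 9 genes the 3 Positive points lie below the 3 Input points, and Positive 1 is the highest Positive point except for Gpr143.

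Divided by exon length, Choroid Positive levels put Pmel, Tyrp1, Dct and Mlana first. Pmel averaged 103 ± 63.8 CPM per kilobase of exon in Positive, Tyrp1 93.1 ± 86.8, Dct 82.2 ± 47.8 and Mlana 60.9 ± 47.9 (SD, n = 3). Slc45a2 averaged 11.8 ± 4.15, Gpr143 6.34 ± 3.06, Mitf 4.80 ± 1.41, Oca2 4.56 ± 2.24 and Tyr 4.23 ± 2.35 CPM per kilobase in Positive. Mlana lay above Slc45a2 in every Positive library, by more than either SD, and Slc45a2 and Gpr143 differed by more than either SD although their libraries overlapped. All other neighbours in this order differed by less than the larger SD.

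The same 4 genes came first in Choroid Input at a higher level. Pmel averaged 751 ± 215 CPM per kilobase in Input, Tyrp1 659 ± 281, Dct 562 ± 192 and Mlana 442 ± 92.9 (SD, n = 3), and these neighbours differed by less than the larger SD. Slc45a2 followed at 80.6 ± 26.5, Oca2 at 45.7 ± 4.55, Tyr at 36.6 ± 4.80, Gpr143 at 30.9 ± 5.08 and Mitf at 29.8 ± 4.16 CPM per kilobase in Input. Every Input library of Mlana was above those of Slc45a2, those of Slc45a2 just above those of Oca2, and those of Oca2 above those of Tyr. Tyr and Gpr143 differed by slightly more than either SD with overlapping libraries, and Gpr143 and Mitf by less. Per kilobase, Tyr, the gene of the rate-limiting enzyme, was among the scarce transcripts in both fractions. The genes of the 2 enzymes of later steps were among the abundant ones. The exon union of Tyr, 7108 bases, was the longest among the pigment genes, and its place depends on that length. In CPM its Input mean (260) was above those of Slc45a2 (240), Mitf (184), Oca2 (181) and Gpr143 (61.7).

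The make-up of the pigment transcripts was compared as each gene's share of their summed per-length level. Pmel was 28.5% ± 2.41 of the mix in Choroid Positive and 28.6% ± 0.51 in Choroid Input. Tyrp1 was 22.9% ± 7.67 in Positive and 24.3% ± 3.92 in Input, and Dct was 23.1% ± 5.36 in Positive and 21.2% ± 0.96 in Input. For each of the 9 genes the ranges of 1 SD around the Positive and the Input mean overlapped. Within homogenates, the shares of Tyr and Oca2 were lower and that of Gpr143 higher in Positive in all 3 pairs, and the other 6 genes had no common direction. The Tyr share was 1.04, 1.34 and 1.22% in Positive, against 1.11, 1.64 and 1.58% in Input, and the Oca2 share was 1.06, 1.60 and 1.32% in Positive, against 1.18, 2.40 and 1.99% in Input. These shares were not tested.

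**Figure D2:**
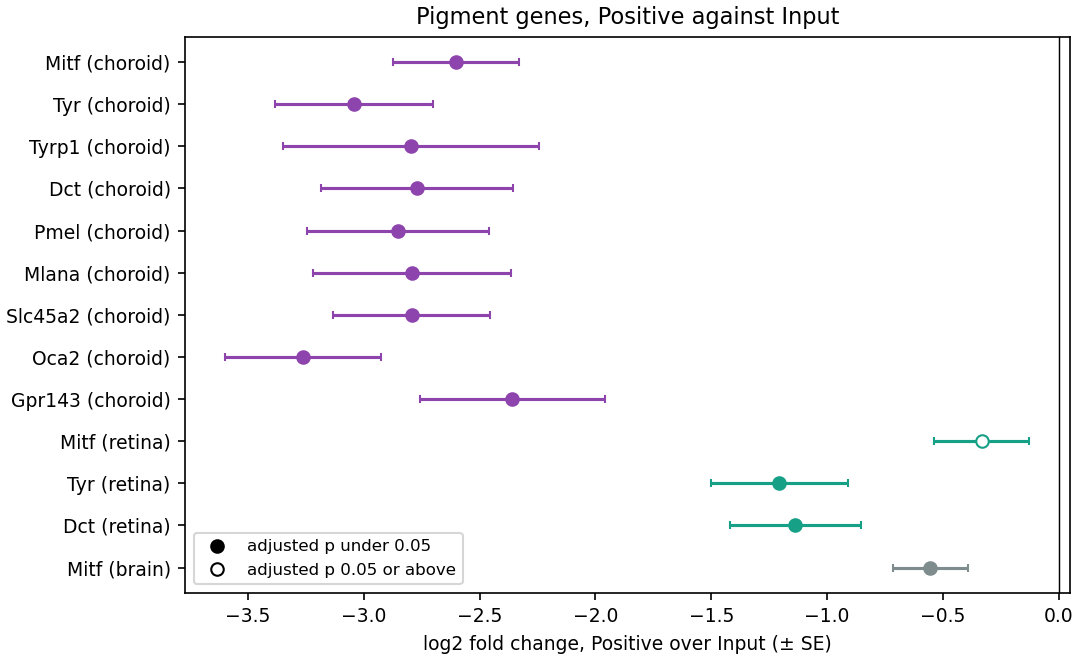
Log2 fold change of Positive over Input for each pigment gene in each tissue that lists it, with the standard error as a bar and filled points for an adjusted p under 0.05. The 9 choroid values lie between -3.26 and -2.36, and the 4 values of retina and brain lie between -1.21 and -0.33.

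Each Choroid Positive library was also set against the Input of its own homogenate. The 9 genes summed stood at 18.4, 14.6 and 7.87% of Input in homogenates 1, 2 and 3. Homogenate 3 had the lowest percentage for all 9 genes, between 5.24% (Oca2) and 12.6% (Mitf). Homogenate 1 had the highest for Mitf, Tyr, Tyrp1, Pmel, Mlana and Oca2, and homogenate 2 for Dct, Slc45a2 and Gpr143. Mitf varied least, at 18.6, 16.8 and 12.6%, and Gpr143 varied widely, at 22.7, 34.6 and 8.25%. In the same homogenates 11 pigment epithelium genes summed to 11.6, 9.01 and 6.40% of Input, 6 fibroblast genes to 14.3, 22.5 and 12.3%, and 12 endothelial genes to 669, 1056 and 658%. Of the 12 lists measured beside the pigment genes, those of the pigment epithelium and of melanocyte signals (52.1, 52.0 and 42.8%) had the same order over homogenates as the summed pigment genes, and the other 10 did not. For melanocyte signals, homogenates 1 and 2 were nearly equal. With 3 homogenates few orders are possible, so a shared order is given as a description only. The part of other cell types in these percentages was not tested.

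**Figure D3:**
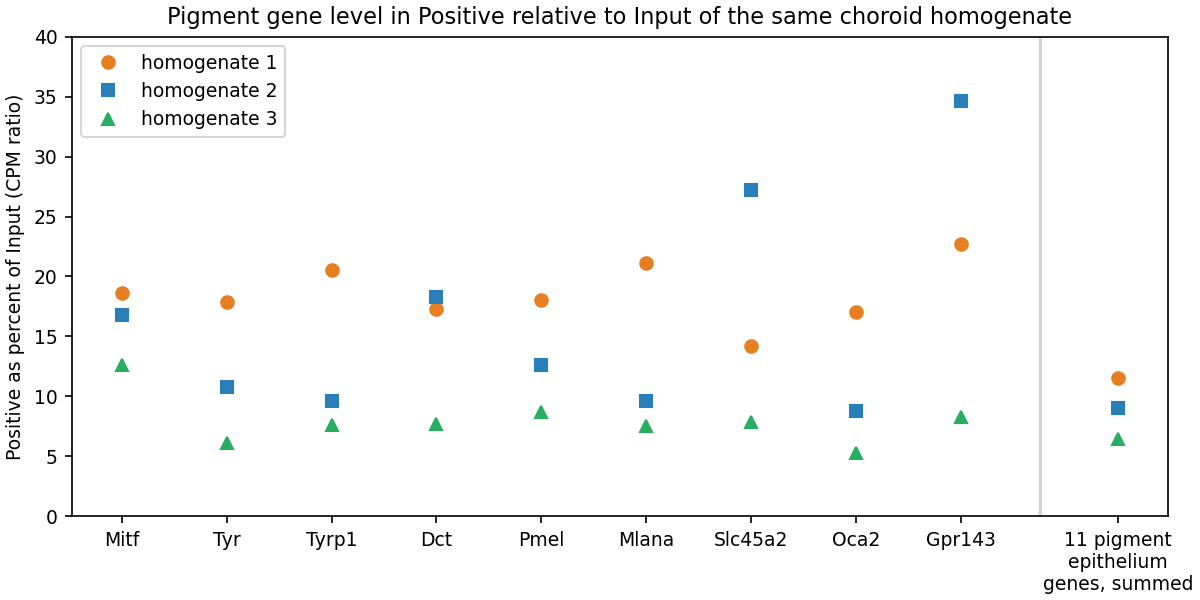
Choroid Positive level as a percent of the Input level of the same homogenate, from CPM, for each pigment gene and, right of the line, for 11 pigment epithelium genes summed; colour and symbol give the homogenate. Homogenate 3 is the lowest point for all 9 genes, and the largest value is 34.6% for Gpr143 in homogenate 2.

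Other genes of the melanosome moved less evenly than the pigment genes. Of 31 genes of melanosome biogenesis and transport, 23 were listed in choroid, of which 12 were lower in Positive, 1 was higher and 10 were not called. The median log2 fold change of these 23 was -0.79, against -0.01 over all choroid genes, of which 20.2% were called lower. Of 7569 choroid genes 4439 were listed through Input alone. Counts called lower in this list and those below are therefore not evidence about a list as a set. The largest decreases were those of Slc24a5, a melanosomal cation exchanger gene (-3.08 ± 0.39, edgeR adjusted p = 8.00e-05), and Gpnmb, a relative of Pmel (-2.91 ± 0.48, 0.000496). The smallest differences were in Bloc1s5 (0.11 ± 0.30) and Vps33a (0.35 ± 0.28), subunits of complexes that sort cargo to lysosome-related organelles in many cell types. Bloc1s6, another sorting subunit and named because it was the 1 gene called higher, had 0.98 ± 0.35 (edgeR adjusted p = 0.0464), where 16.3% of all choroid genes were called higher. The melanosome transport genes Rab27a (-2.49), Mlph (-2.28) and Myo5a (-1.50), which link melanosomes to actin, were called lower, while Myo7a (-0.62, edgeR adjusted p = 0.0622) and Myrip (-0.60, 0.0567), with a like role, did not pass the test.

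Signals and regulators of the melanocyte lineage were only partly listed. Of 14 such genes 6 were listed in choroid, 4 were lower in Positive and 2 were not called, where 20.2% of all choroid genes were called lower. The decreases were in Met, the hepatocyte growth factor receptor gene (-3.43), Edn3, the ligand of the endothelin B receptor (-3.13), Sox10, a transcription factor of neural crest derivatives (-2.72), and Kit, the stem cell factor receptor gene (-2.35). Ednrb, the endothelin B receptor gene (0.31 ± 0.26), and Kitl, the gene of the KIT ligand (0.22 ± 0.22), were not called (edgeR adjusted p = 0.391 and 0.467). Ednrb measured 786, 562 and 565 CPM in Choroid Positive, against 688, 353 and 506 CPM in Choroid Input, and the fractions overlapped. Kit was far scarcer, at 8.41, 4.77 and 9.28 CPM in Choroid Positive, against 33.7, 50.1 and 38.9 CPM in Choroid Input. The receptors Kit and Ednrb, both known from melanocytes, thus differed in level as well as in change. Which cells gave the RNA of either was not tested.

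Among relatives and known targets of MITF, 8 of 9 genes were listed in choroid, 5 were lower in Positive and 3 were not called. The share called lower among all choroid genes was 20.2%. Trpm1, whose transcript hosts a microRNA and which is known from melanocytes and retinal bipolar cells, had -2.48 ± 0.42 (edgeR adjusted p = 0.000599), and Cdh1, the E-cadherin gene, had -1.92 ± 0.46 (0.0059). The other genes called were Ppargc1a (-1.89), Cdk2 (-1.29) and Bcl2 (-1.12). The values of Tbx2 (0.09 ± 0.22), Tfeb (0.18 ± 0.34) and Tfe3 (0.25 ± 0.25) did not pass the test. Tfeb and Tfe3 belong to the same basic helix-loop-helix leucine zipper family as Mitf and are known from many cell types.

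Markers of melanocytes outside the 9 genes and of other cells of the choroid were measured beside them. Of 7 melanocyte markers 4 were listed in choroid (Pax3, Mc1r and Irf4 were not), 3 of which were lower in Positive: Sox10, Kit and Cdh19 (-1.89). Sox10, Kit and Ednrb stand in both this list and that of the lineage signals, and Sox10 and Cdh19 are also known from Schwann cells. The summed level of the 4 markers was 0.0514 to 0.0849% of listed counts in Choroid Positive and 0.0581 to 0.102% in Choroid Input, most of it from Ednrb. Where 20.2% of all choroid genes were called lower, 11 of 12 pigment epithelium genes were listed and 11 were lower. These 11 genes ran from -4.04 (Rdh5) to -2.95 (Stra6), with a median of -3.67. Their sum was 0.232 to 0.371% of listed counts in Choroid Positive and 2.88 to 4.72% in Choroid Input, and the 9 pigment genes took 0.0642 to 0.205% in Choroid Positive and 0.592 to 1.16% in Choroid Input. The pigment genes are known from both melanocytes and pigment epithelium, and which of these cells gave the RNA was not tested.

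Most genes of further cell types were lower in Choroid Positive, to an extent that differed between lists. Of all choroid genes 20.2% were called lower, and 4439 of 7569 were listed through Input alone. The counts that follow are therefore not evidence about the lists as sets. Of 9 listed photoreceptor genes 7 were lower (median -2.19), of 6 fibroblast genes 6 (median -2.67), of 5 macrophage genes 4 (median -2.98), of 6 mural cell genes 5 (median -2.42) and of 3 Schwann cell genes 2 (median -0.82). Of 4 neuron genes 3 were lower and Stmn2 was higher (1.78), with a median of -1.51. The pigment genes' median of -2.79 lay within the range of these medians. The 12 endothelial genes ran the other way, from 2.28 (Emcn) to 3.11 (Plvap), where 16.3% of all choroid genes were called higher.

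**Figure D4:**
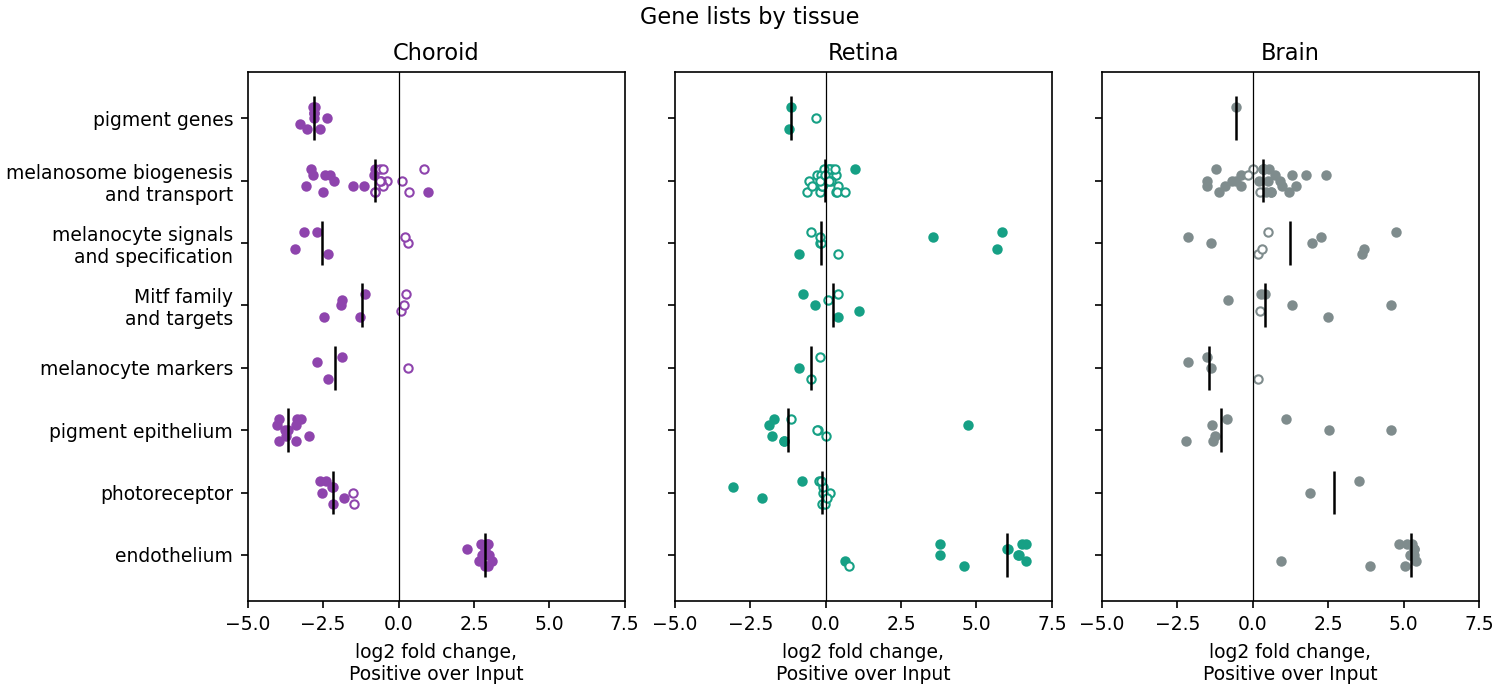
Log2 fold change of Positive over Input for the genes of 8 lists in choroid, retina and brain; each point is a gene, filled where the adjusted p was under 0.05, and the black bar is the list's median. In choroid the pigment genes lie around -2.79, between the pigment epithelium genes (median -3.67) and the melanosome genes (median -0.79), and the endothelial genes lie on the other side of 0.

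The genes most like the pigment genes over the 6 choroid libraries were sought by distance to the pigment genes' mean profile. The distance is the root mean square difference of log2(CPM + 1) values, each gene centred on its own mean, among genes whose mean level was no lower than the median. The 8 nearest were Spp1 (0.18), Edn3 (0.19), Trpm1 (0.19), Serping1 (0.21), Cygb (0.22), Slc24a5 (0.26), Gpc1 (0.27) and Pcolce (0.27). The 9 pigment genes themselves stood at 0.15 (Pmel) to 0.49 (Tyrp1) from a mean that they helped to form. Edn3, Trpm1 and Slc24a5 belong to the lists above, and the other 5 do not. Edn3 measured 118, 57.3 and 38.8 CPM in Choroid Positive, against 756, 473 and 698 CPM in Choroid Input, with Positive 1 the highest Positive library as for most pigment genes.

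In retina, Tyr and Dct were lower in Positive than in Input at 43.3 and 45.5% of the Input level, and Mitf did not pass the test. Tyr measured 1.88, 1.01 and 1.43 CPM in Retina Positive, against 2.89, 4.18 and 3.19 CPM in Retina Input. Dct measured 3.59, 2.78 and 5.37 CPM in Retina Positive, against 9.58, 6.69 and 10.0 CPM in Retina Input. The fractions did not overlap for either enzyme, though the highest Positive and the lowest Input value lay close together. Positive over Input was -1.21 ± 0.30 on the log2 scale for Tyr (edgeR adjusted p = 0.0194) and -1.14 ± 0.28 for Dct (0.0202), where 10.8% of all retina genes were called lower and 22.7% had all Positive libraries below all Input libraries. Both were listed through Input alone, with 12.0 to 41.5 estimated counts of Tyr and 33.0 to 135 of Dct in Retina Positive. Adjusted p was 0.0870 for Tyr without Retina Input 2, and for Dct it was 0.0681 without Retina Positive 1 and 0.0758 without Retina Input 1 or without Retina Input 3.

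Mitf in retina measured 7.18, 4.55 and 6.09 CPM in Retina Positive, against 7.89, 7.07 and 7.69 CPM in Retina Input. The highest Positive library was above the lowest Input library. The log2 fold change of -0.33 ± 0.21 did not pass the test (edgeR adjusted p = 0.275). Mitf met the listing minimum in both fractions of retina.

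Of the melanosome genes 27 were listed in retina, where none was lower and 1, Gpnmb, was higher (0.97, edgeR adjusted p = 0.0308), against 15.3% of all retina genes called higher. Of 9 listed genes of melanocyte signals, Edn3 (5.85), Lef1 (5.67) and Kitl (3.55) were higher and Kit was lower (-0.89). Of 6 relatives and targets of MITF, Tfeb (1.12) and Tbx2 (0.41) were higher and Bcl2 (-0.75) and Ppargc1a (-0.34) were lower. Of 10 listed pigment epithelium genes Rgr (-1.89), Ttr (-1.76), Rpe65 (-1.71), Rdh5 (-1.37) and Slc16a8 (-1.37) were lower, where 10.8% of all retina genes were called lower. Stra6, a retinol transporter gene, was higher (4.72), and 4 were not called: Lrat (-1.13), Rrh (-0.28), Otx2 (-0.26) and Rlbp1 (0.002). The median of the 10 was -1.25. These retina genes were named after their values were seen. The summed pigment epithelium level was 0.0637 to 0.0966% of listed counts in Retina Positive and 0.0639 to 0.0859% in Retina Input. This sum joins genes that were lower, Stra6 and genes not called, so it does not show how single genes moved. The part of the pigment epithelium in the retinal values of Tyr and Dct was not tested.

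In brain, Mitf alone was listed. It measured 7.98, 5.90 and 9.21 CPM in Brain Positive, against 11.2, 10.98 and 11.7 CPM in Brain Input. All Positive libraries were below the tightly grouped Input libraries, with Brain Positive 2 the lowest. The log2 fold change was -0.56 ± 0.16 (edgeR adjusted p = 0.00977), in a tissue where 39.7% of all genes were called lower and 41.1% had all Positive libraries below all Input libraries. Of 29 listed melanosome genes 9 were lower and 17 higher, against 38.3% of all brain genes called higher, and their median was 0.35. Of 10 listed genes of melanocyte signals Sox10 (-2.14) and Ednrb (-1.39) were lower and 5 were higher, led by Edn3 (4.74). Of 7 relatives and targets of MITF Ppargc1a (-0.83) was lower and 5 were higher, led by Cdh1 (4.59). These brain genes were named after their values were seen.

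The difference between tissues in Positive over Input was then tested over genes listed in both tables. Choroid Mitf stood at 18.6, 16.8 and 12.6% of Input, against 90.98, 64.3 and 79.2% in retina, with no overlap. Choroid minus Retina was -2.18 ± 0.32 on the log2 scale for Mitf (edgeR adjusted p = 0.000184), -1.76 ± 0.46 for Tyr (0.0102) and -1.56 ± 0.55 for Dct (0.0441), so all 3 shared genes were called lower in choroid, where 22.3% of 7313 genes were. Tyr in both tissues, Mitf in choroid and Dct in retina were listed through Input alone, while Dct in choroid and Mitf in retina met the minimum in both fractions. The listing thus bore unequally on the tissues, and the count of 3 is not evidence about the pigment genes as a set. The value of Tyr was -2.47 without Choroid Positive 1. The call for Dct was lost in 9 of the 12 fits that left out 1 library, with adjusted p up to 0.117 without Retina Positive 3. Leaving out Choroid Positive 1, Choroid Input 2 or Retina Positive 2 kept it.

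For Mitf, Choroid minus Brain was -1.71 ± 0.31 on the log2 scale (edgeR adjusted p = 0.000387), where 25.7% of 7461 genes were called lower. Mitf met the listing minimum in both fractions of brain and in Input alone in choroid. Brain Mitf stood at 70.9, 53.8 and 78.8% of Input, above every choroid homogenate. This comparison shares its choroid libraries with that against retina. Retina minus Brain was 0.27 ± 0.26 and did not pass the test (edgeR adjusted p = 0.416; 0.51 with DESeq2), where 48.8% of 12437 genes were called in either direction. The endothelial genes summed to 669, 1056 and 658% of Input in choroid, 952, 1145 and 2301% in retina and 2800, 3211 and 2926% in brain. Their share of listed counts was 0.239 to 0.450% in Choroid Input, 0.0253 to 0.0311% in Retina Input and 0.0182 to 0.0224% in Brain Input. In Positive it was 2.20 to 2.88% in choroid, 0.286 to 0.551% in retina and 0.534 to 0.586% in brain. The tissues thus differed in this ratio, and choroid had the largest share in both fractions. The part of the ratio or of the shares in the differences of the pigment genes was not tested.

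The 3 shared genes were higher in choroid than in retina in both fractions. On a scale shared by choroid and retina, Input was higher in choroid by 8.41 ± 0.51 on the log2 scale for Dct (edgeR adjusted p = 7.33e-09), by 6.10 ± 0.34 for Tyr (3.61e-09) and by 4.46 ± 0.24 for Mitf (2.90e-09). These are 340-fold, 68.4-fold and 21.9-fold differences, and 35.5% of 7313 genes were called higher in Choroid Input. In Positive the same genes were higher in choroid by 6.85 ± 0.48 for Dct (5.57e-08), 4.34 ± 0.36 for Tyr (2.80e-07) and 2.27 ± 0.25 for Mitf (3.27e-06), where 30.5% of genes were called higher. Every Choroid Positive library held more of each of the 3 transcripts than every Retina Input library. Without Choroid Positive 1 the Positive difference of Tyr was 3.64. The tables had been filtered separately, so only genes listed in both entered these values.

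Mitf was the gene that could be followed through all 3 tissues. Input was higher in choroid than in brain by 3.75 ± 0.22 on the log2 scale (edgeR adjusted p = 2.52e-09; 33.9% of genes called higher), and Positive by 2.04 ± 0.24 (7.44e-06; 28.3% called higher). In Input, retina was lower than brain by a log2 fold change of -0.57 ± 0.18 (edgeR adjusted p = 0.0109; 37.8% of genes called lower), a call lost without Brain Input 3 (0.0506). In Positive, the retina to brain difference of -0.31 ± 0.19 did not pass the test (edgeR adjusted p = 0.149; 0.0617 with DESeq2; 75.5% of genes called in either direction), and it passed without Brain Positive 2 (-0.48, 0.0340). The order of Mitf in Input was choroid, brain, retina, with choroid far above the others.

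**Figure D5:**
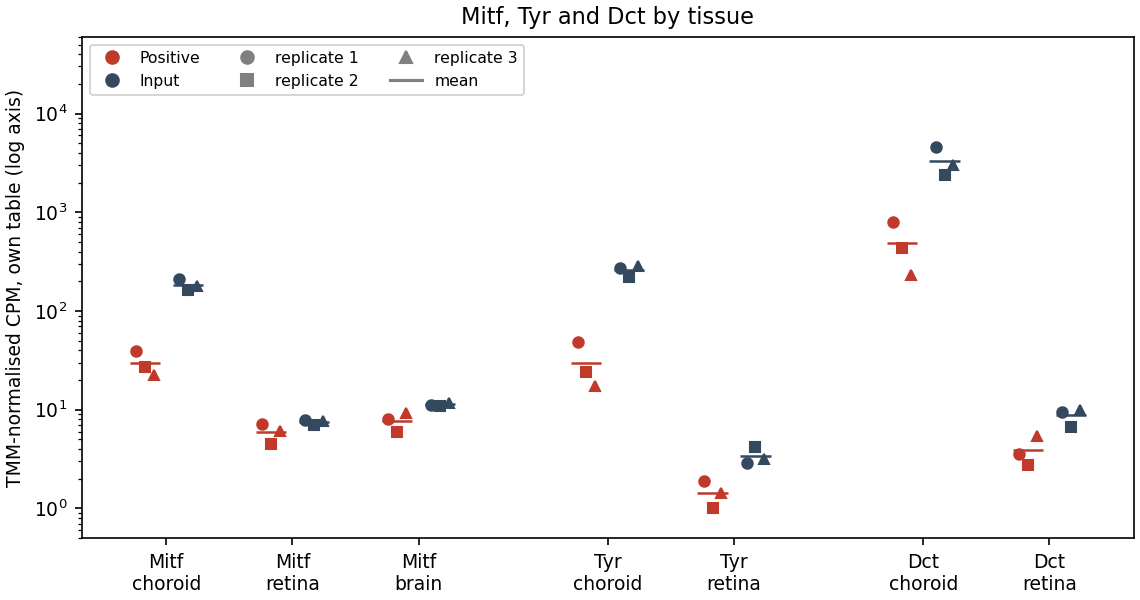
Level of Mitf, Tyr and Dct in CPM on a log axis for each tissue that lists the gene, each scaled within its own table, with Positive in red to the left of Input in blue, the replicate number as the symbol and the group mean as a bar. Choroid stands above retina for each gene and above brain for Mitf, in both fractions. For each gene the gap between fractions is wider in choroid than in the other tissues that list it.

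The balance between the shared genes also differed between tissues. Per exon length, Dct was 19.1 ± 2.88 times Tyr in Choroid Positive and 15.2 ± 4.15 times in Choroid Input (SD, n = 3), against 3.38 ± 1.11 times in Retina Positive and 3.24 ± 1.14 times in Retina Input. The ratio was higher in every choroid library than in every retina library, and within each tissue the fractions overlapped. Mitf was 1.24 ± 0.29 times Tyr in Choroid Positive and 0.82 ± 0.083 times in Choroid Input, against 4.80 ± 0.40 times in Retina Positive and 2.61 ± 0.61 times in Retina Input. In both tissues every Positive library had a higher Mitf to Tyr ratio than every Input library. With 3 libraries a fraction an exact two-sided permutation test cannot give a p below 0.1, so these ratios are given as a description. In retina the ratios rest on as few as 12.0 estimated counts of Tyr.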

How the data were processed

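Ribosome-bound (Positive) and whole-tissue (Input) RNA of choroid, retina and brain was sequenced, 3 libraries a group; per the labels the library kit was directional. The authors deposited expected counts per gene (headed raw, and fractional) and normalized values on a log2 scale relative to the Input median, which no test used. Build mm10 and DESeq appear in the submitters' processing notes; which aligner and counting program were used, and whether strand was, is not given in the sources used here. Per the file headers a gene needed a raw value of 50 or more throughout either fraction. Totals are of listed genes, not full depths. In retina and in brain 1 duplicate identifier row was dropped.

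Counts were rounded and fitted per tissue with edgeR 4.0.16 (R 4.3.3; TMM; no gene fell to filterByExpr at a minimum count of 10; quasi-likelihood F test, residual df 4). Tissues were compared in fits of 12 libraries over the genes listed in both tables (residual df 8). Per-length levels used the union of GENCODE exons. Homogenate percentages are ratios of CPM. The procedure was tested on simulated data. Per the labels' protocols, Input and Positive of the same number came from 1 homogenate; deviations of the pairs from their group means correlated at 0.189 to 0.362 in choroid, -0.107 to 0.303 in retina and 0.0854 to 0.296 in brain.

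All 9 members are named, with the 8 genes nearest to the members' mean profile. The 2 largest and 2 smallest choroid changes are named for the lists of melanosome genes, melanocyte signals, and MITF relatives and targets. The melanocyte markers listed in choroid are all named, and for pigment epithelium and endothelium the ends of the choroid range are. Other named genes were chosen after their values were seen. The members and all 12 gene lists were chosen with earlier results of these data known. Alternatives were DESeq2 1.42.0 (size factors; Wald test), no filter, genes at or above the median level, stricter thresholds, the homogenate as a block, each library left out, and Rn45s and Lars2 left out.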

Additional observations from a re-analysis of the deposited data

Results flagged for a closer look

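Differences between tissues in Positive over Input, tested as interactions with edgeR's quasi-likelihood test, singled out 4 values. The log2 difference of choroid minus retina was -2.18 for Mitf, -1.76 for Tyr and -1.56 for Dct, and that of choroid minus brain was -1.71 for Mitf. Each of these genes was listed through Input alone in at least 1 of the tissues compared. In choroid homogenates the CPM of Mitf in Positive was 12.6 to 18.6% of that in Input, against 64.3 to 90.98% in retina and 53.8 to 78.8% in brain. The Dct difference passed the threshold with all libraries (adjusted p = 0.0441) and in 3 of the 12 fits with 1 library left out.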

How the results depend on the processing

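No result changed direction. All 107 choroid values of single genes under the alternatives stayed on their side of the threshold, as did 29 of 33 in retina, 11 of 11 in brain and 43 of 52 of choroid minus retina. The replicate block (homogenate) left 9, 2 and 1 members lower in choroid, retina and brain, as without it, and changed no call. With an adjusted p under 0.01, members lower in retina were 0 (2 as reported), members called in choroid minus retina 1 (3 as reported), members called in Input of retina against brain 0 (1 as reported), and all retina genes called 1732 (3352 as reported). With a log2 fold change of at least 1, members lower in brain were 0 (1 as reported), Input of retina against brain gave 0, and all genes called were 1170 in retina and 4606 in brain (10895 as reported). When genes under the median level were dropped, so that fewer were tested, all genes called were 1808 in choroid (2767 as reported), 1955 in retina and 5736 in brain. Members lower were 0 in retina and 0 in brain, members called were 1 in each of choroid against retina (Input, Positive and their difference), 0 in each of choroid against brain (1 as reported) and 0 in Input of retina against brain, because members below that level were not tested. With each library left out in turn, members lower in retina were 1 to 2, all retina genes called 1836 to 3638, members called in choroid minus retina 2 to 3, and members called in retina against brain 0 to 1 in Input and 0 to 1 in Positive. For other changes the cause was not tested. Choroid depth limits the scarce genes: Gpr143 had 10.2 estimated counts in Choroid Positive 3 and Oca2 9.91 in Choroid Positive 2. Intervals were not given for levels, whose SD over 3 libraries covers preparation and counting together.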
